A study of Mus musculus with 10 samples.

Results

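The genes described here are 48 DNA repair and checkpoint genes of the mouse, taken from a list of names that covers translesion synthesis, homologous recombination, the Fanconi anaemia pathway, checkpoint kinases, end joining, and the repair of mismatches, damaged bases and single-strand breaks. Each was found by its name, with Mre11 under its older symbol Mre11a, and its transcripts were summed in every library. All 48 were matched among the 51707 genes of the table, and all 48 passed the filter on low counts that left 17495 genes for testing. The rule used names and no measured value, but the list of names was chosen with earlier results of these data known.

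The study transplanted T6-LOH KPC organoids, a genetic mouse model of pancreatic ductal adenocarcinoma (PDAC), into the mouse pancreas together with pancreatic stellate cells (PSCs), which are the fibroblast precursors of that organ. Epithelial cells were then flow-sorted from the tumours and their RNA was sequenced in bulk. In 5 libraries the PSCs were the Egfr knockout line labelled PSC4 EGFR KO B4 (Egfr KO PSC). In the other 5 they were the line labelled PSC4 ROSA (egfr), taken as the Egfr WT PSC of the series title. Both groups received the same organoids and a derivative of the same PSC line, PSC4. The knockout line is 1 clone, so the loss of Egfr and the properties of the clone cannot be told apart. The PSCs carried the Egfr deletion, while the sorted tumour cells did not. The title names NSG mice, which lack lymphocytes, while every library carries the strain label C57BL/6J, and no age, time or further treatment is given in the sources used here. Nothing in the labels says that each library came from its own mouse. The p-values therefore describe the spread among these 10 libraries, which may be partly technical.

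DNA repair genes encode pathways that divide the work by the kind of lesion. Translesion synthesis lets replication pass a damaged base by recruiting specialised polymerases to a PCNA clamp marked with ubiquitin. Homologous recombination and the Fanconi anaemia pathway deal with broken and cross-linked DNA during and after replication, end joining seals breaks without a template, and excision and mismatch repair remove damaged or mispaired bases. Many recombination, Fanconi and checkpoint genes are transcribed mainly in S and G2 phase. Their RNA level in a tissue can therefore follow how many of its cells are dividing, which was not measured here.

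The libraries held 39534055 to 53816086 estimated counts in genes. Epithelial markers were abundant, with Epcam between 117 and 322 CPM (counts relative to the library total, scaled by the trimmed mean of M values) and Krt19 between 3255 and 6226 CPM in single libraries. The mean log2 CPM of 10 epithelial markers was 10.2 ± 0.246 in Egfr KO PSC libraries and 10.2 ± 0.0886 in Egfr WT PSC libraries (SD, n = 5 each; exact two-sided permutation p = 0.929). RNA of other cells was present at lower levels, and the fibroblast, macrophage and erythroid levels differed between the groups. Of 16 fibroblast and stellate markers, 13 had a lower mean with Egfr KO PSCs. Their mean log2 CPM was 2.74 ± 0.271 in Egfr KO PSC libraries and 3.30 ± 0.344 in Egfr WT PSC libraries (exact two-sided permutation p = 0.0159), while their summed level overlapped, at 395 to 1317 CPM with Egfr KO PSCs against 434 to 1062 CPM with Egfr WT PSCs. Of 13 macrophage markers 11 were tested and 8 of these were lower, and their mean log2 CPM was -0.30 ± 0.431 with Egfr KO PSCs against 0.50 ± 0.531 with Egfr WT PSCs (exact permutation p = 0.0317). Their summed level was 54.5 to 86.7 CPM with Egfr KO PSCs against 39.97 to 96.7 CPM with Egfr WT PSCs. Of 6 erythroid markers 4 were tested and all 4 were lower, with a summed level of 0.905 to 3.55 CPM with Egfr KO PSCs against 6.5 to 42.4 CPM with Egfr WT PSCs (exact permutation p of the sum 0.00794, the smallest that 5 against 5 can give). The mean log2 CPM of neutrophil, endothelial, acinar and islet markers did not differ beyond the spread (exact two-sided permutation p = 0.794, 0.151, 0.833 and 0.849). Of 10 endothelial markers, however, 9 were tested and all 9 were lower, 0 of them at an unadjusted edgeR p under 0.05. Their mean log2 CPM was 0.70 ± 0.691 with Egfr KO PSCs, with replicate 3 highest at 1.82, against 1.25 ± 0.297 with Egfr WT PSCs. The acinar markers summed to 91.9 to 425 CPM with Egfr KO PSCs and 109 to 344 CPM with Egfr WT PSCs. All 10 lymphocyte markers were below the filter, with Cd3g at 0 in every library. In bulk RNA, fewer cells of a type and less RNA per cell cannot be told apart.

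The design asks whether PSCs without Egfr are accompanied by other levels of these genes in the tumour epithelium. With edgeR's quasi-likelihood test, 0 of the 48 members passed an adjusted p of 0.05, and 0% of the 17495 genes did. Rad18 was the member of lowest p and the only one whose libraries did not overlap between the groups, against 1.52% of all genes (0.777% higher and 0.743% lower). At an unadjusted edgeR p under 0.05 there were 5 members (10.4%), against 8.15% of all genes. They were Rad18, Polk, Mre11a and Xrcc3, with higher levels in Egfr KO PSC libraries (4 of 48, against 3.55% of all genes), and Rad51b, with lower ones (1 of 48, against 4.6%). The share at this level was thus near that of all genes. The fitted log2 fold change was above 0 in 30 members and below 0 in 18, with a median of 0.04 beside 0.00041 for all genes tested. It lay between -0.36 for Rad51b and 0.67 for Rad18. The median 95% confidence interval of a member reached 0.375 to either side on the log2 scale.

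**Figure D1:**
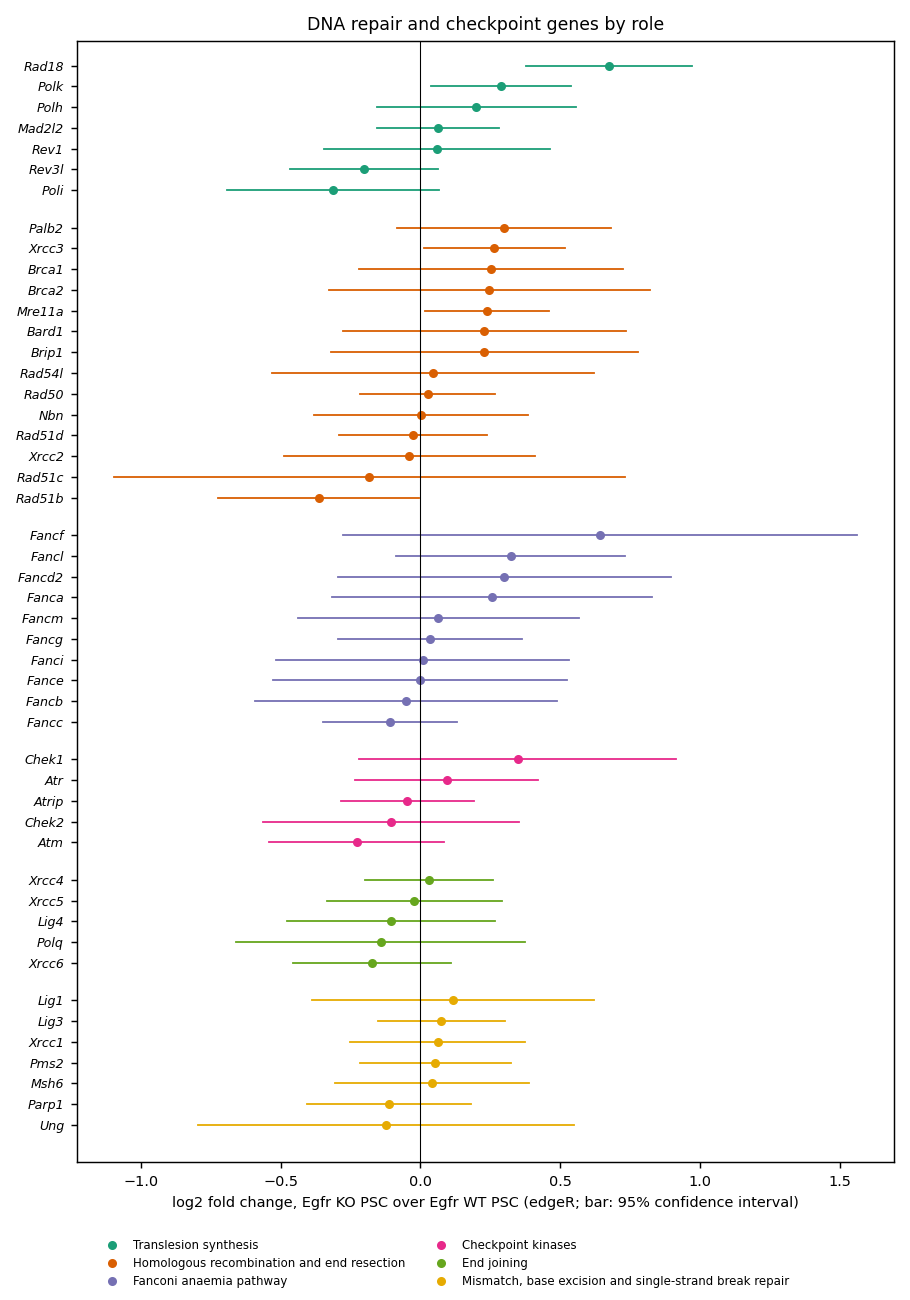
Fitted log2 fold change of each of the 48 members, Egfr KO PSC over Egfr WT PSC (horizontal axis), grouped by role and marked by colour, with the 95% confidence interval of edgeR as a bar. Rad18 at 0.67 has the interval farthest above 0 (0.38 to 0.97), and most other intervals include 0.

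Among the translesion synthesis genes, Rad18 encodes the E3 ubiquitin ligase that, with its partner Rad6, attaches ubiquitin to PCNA at stalled forks. Rad18 (ENSMUSG00000030254, chromosome 6) was at 53.6, 65.7, 89.5, 66.4 and 64.4 CPM in the 5 Egfr KO PSC libraries. In the 5 Egfr WT PSC libraries it was at 45.5, 43.3, 34.9, 44.2 and 44.8 CPM. Every Egfr KO PSC library lay above every Egfr WT PSC library, with Egfr KO PSC replicate 3 highest and Egfr WT PSC replicate 3 lowest. The means were 67.9 ± 13.1 CPM and 42.6 ± 4.35 CPM (SD, n = 5 each), a log2 fold change of 0.67 (SE 0.14, 95% confidence interval 0.38 to 0.97), or 1.6-fold. Its unadjusted p was 0.000349 and its edgeR adjusted p was 0.305 over all genes. DESeq2 called it, the only member among the 131 genes called by that tool (0.749% of all genes, or 0.24% counting higher ones), with an adjusted p of 0.00599. The adjusted p of Rad18 over all alternatives lay between 0.00599 and 0.874, and limma voom called 0 members against 0.0114% of all genes.

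The per-length level of Rad18 separated the groups in the same way. It was 28.9, 36.9, 52.4, 36.5 and 32.8 TPM, the deposited level scaled by effective transcript length, in Egfr KO PSC libraries, against 26.4, 23.5, 20.6, 25.9 and 23.6 TPM in Egfr WT PSC libraries. By mean TPM it had rank 6 among the 48 members. The log2 fold change of Rad18 stayed between 0.56 and 0.76 when any 1 library was left out, with the lowest value without Egfr KO PSC replicate 3. Since the fibroblast and macrophage levels moved with the groups, they were entered as covariates: the value was 0.90 with the fibroblast and stellate level and 0.77 with the macrophage level (edgeR adjusted p 0.247 and 0.874). The erythroid level, which did not overlap between the groups, was not entered, so its part in the Rad18 difference was not tested.

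**Figure D2:**
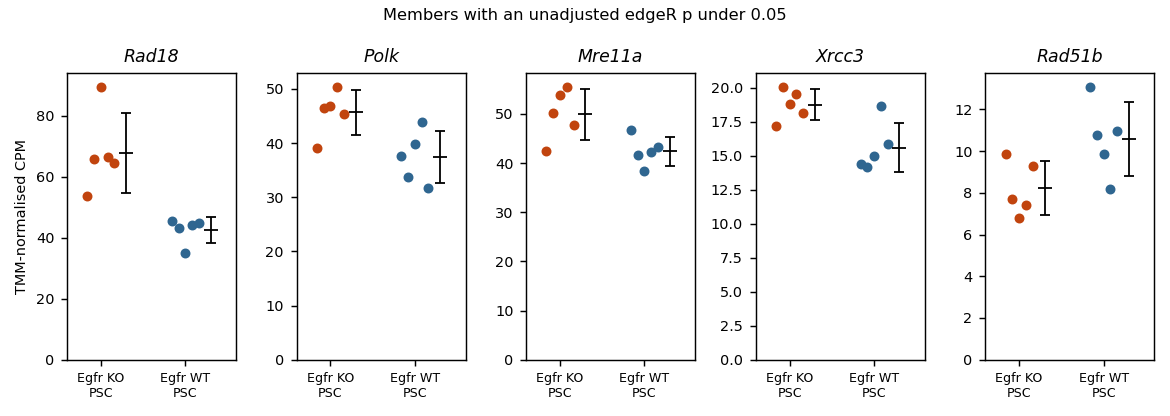
TMM-normalised CPM (vertical axes from 0) of the 5 members with an unadjusted edgeR p under 0.05, 1 point per library, with the mean and SD of each group beside the points. Rad18 is at 53.6 to 89.5 CPM in Egfr KO PSC libraries, all above the 34.9 to 45.5 CPM of Egfr WT PSC libraries, while the groups overlap for Polk, Mre11a, Xrcc3 and Rad51b.

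The files list 8 transcripts of Rad18, and 5 of them passed the filter. All 5 had a log2 fold change above 0. The protein-coding transcript ENSMUST00000077088.11 held 37.3% of the mean Rad18 TPM. It was at 12.7, 13.8, 17.4, 12.8 and 12.6 TPM in Egfr KO PSC libraries, against 9.71, 9.26, 8.03, 7.99 and 10.7 TPM in Egfr WT PSC libraries, without overlap (log2 fold change 0.59, SE 0.15). The processed transcript ENSMUST00000132590.8, with 24.3% of the TPM, averaged 9.24 ± 2.29 in Egfr KO PSC and 5.68 ± 0.688 TPM in Egfr WT PSC libraries (SD, n = 5 each; log2 fold change 0.70). A second protein-coding transcript, ENSMUST00000068487.12, averaged 5.69 ± 1.26 in Egfr KO PSC and 3.94 ± 0.845 TPM in Egfr WT PSC libraries (log2 fold change 0.54). The retained-intron transcript ENSMUST00000135092.2 averaged 4.32 ± 1.41 in Egfr KO PSC and 2.0 ± 0.54 TPM in Egfr WT PSC libraries without overlap (log2 fold change 1.12), and the nonsense-mediated decay transcript ENSMUST00000156063.2 averaged 4.04 ± 2.09 in Egfr KO PSC and 3.26 ± 1.72 TPM in Egfr WT PSC libraries (log2 fold change 0.29). As the reads were divided, the estimated difference was spread over several annotated transcripts, 2 of them protein coding. The edgeR adjusted p of the 5 transcripts lay between 0.940 and 0.99997, and whether 1 transcript alone changed was not tested. With edgeR 0 of the 162 member transcripts tested were called, against 0% of 46220 transcripts. At an unadjusted edgeR p under 0.05 there were 11 (6.79%, against 5.14% of all transcripts), 4 of them Rad18 transcripts. The 11 came from 7 members. DESeq2 gave an adjusted p to 102 member transcripts and called 3 of these, each from Rad18 (2.94%, against 0.462% of the 31833 transcripts given one). Transcripts of 1 gene share reads and are not independent, so these 3 calls describe 1 gene. How Salmon divided reads shared between transcripts is an estimate, so the sum over the gene is the firmer value.

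**Figure D3:**
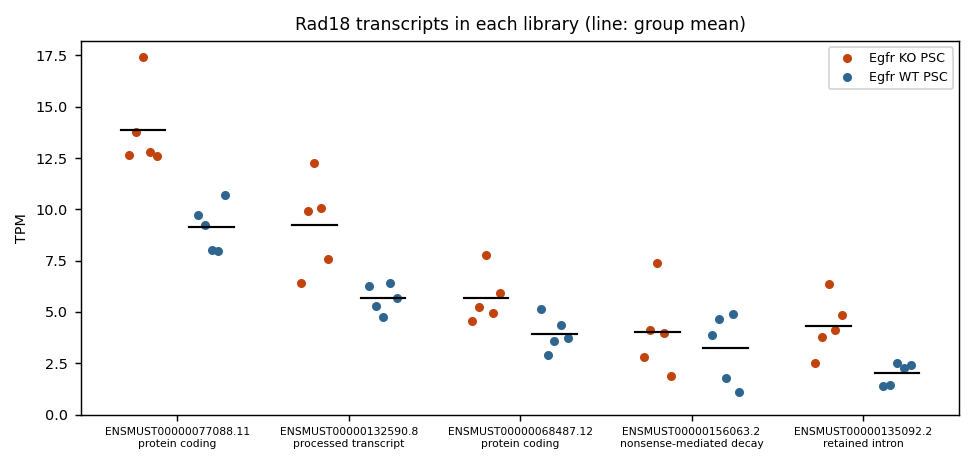
TPM (vertical axis) of the 5 tested Rad18 transcripts in each library, with Egfr KO PSC left of Egfr WT PSC and a line at each group mean. The transcripts ENSMUST00000077088.11 and ENSMUST00000135092.2 do not overlap between the groups, and the nonsense-mediated decay transcript ENSMUST00000156063.2 overlaps widely.

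The RefSeq window around the start of Rad18, 250 bases before to 50 bases from the start on GRCm38.p6, is shown because this gene had the lowest p of the set. It was searched for CCAAT and for letters of the E2F type, the factors that drive S phase genes. The E2F-type letters were TTTCCCGC, TTTCGCGC, TTTGCCGC, TTTGGCGC and GGCGGGAA, on both strands, where matches to several of these strings can overlap each other. None of them, and no CCAAT, is in this window (chr6:112696621-112696920, minus strand), so it is printed without capitals.
Rad18: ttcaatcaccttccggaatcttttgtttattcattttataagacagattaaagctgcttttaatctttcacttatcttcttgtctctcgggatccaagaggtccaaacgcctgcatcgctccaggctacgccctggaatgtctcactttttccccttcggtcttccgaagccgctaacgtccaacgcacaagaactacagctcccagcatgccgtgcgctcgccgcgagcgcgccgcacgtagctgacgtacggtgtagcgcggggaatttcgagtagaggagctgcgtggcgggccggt

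Polk encodes polymerase kappa, which extends past bulky adducts. It was at 39.1, 46.5, 46.9, 50.4 and 45.4 CPM in Egfr KO PSC libraries, against 37.6, 33.7, 39.9, 43.9 and 31.8 CPM in Egfr WT PSC libraries. The groups overlapped, with a log2 fold change of 0.29 (SE 0.11, 95% confidence interval 0.04 to 0.54, edgeR adjusted p = 0.552), and it was 0.16 with the fibroblast and stellate level as a covariate. Its transcript ENSMUST00000022172.12 held 76.9% of the Polk TPM and averaged 13.8 ± 1.5 in Egfr KO PSC and 11.8 ± 1.88 TPM in Egfr WT PSC libraries.

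Mad2l2 encodes Rev7, a subunit of polymerase zeta that also acts in the shieldin complex at breaks. By TPM it was the highest of all members, at 64.8, 62.8, 64.9, 63.6 and 71.0 TPM in Egfr KO PSC libraries and 67.2, 66.7, 62.9, 65.0 and 59.7 TPM in Egfr WT PSC libraries. Its CPM was 46.9, 43.2, 42.4, 45.2 and 53.8 with Egfr KO PSCs and 44.9, 49.6, 41.2, 43.9 and 42.0 with Egfr WT PSCs (log2 fold change 0.06, 95% confidence interval -0.16 to 0.28). The groups overlapped on either scale. Its transcript ENSMUST00000105707.2 (45.4% of the TPM) averaged 28.7 ± 4.38 in Egfr KO PSC and 30.2 ± 1.85 TPM in Egfr WT PSC libraries. The transcript ENSMUST00000030860.9 (43.4%) averaged 29.2 ± 2.98 in Egfr KO PSC and 27.1 ± 1.74 TPM in Egfr WT PSC libraries.

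The catalytic subunit of polymerase zeta, Rev3l, averaged 11.3 ± 1.33 in Egfr KO PSC and 13.0 ± 0.409 CPM in Egfr WT PSC libraries. Poli, for polymerase iota, averaged 11.0 ± 2.47 in Egfr KO PSC and 13.7 ± 2.05 CPM in Egfr WT PSC libraries, and had the most negative fitted change of the group (log2 fold change -0.31). Polh, for polymerase eta, which copies past ultraviolet-induced pyrimidine dimers, averaged 11.3 ± 1.19 in Egfr KO PSC and 9.80 ± 2.04 CPM in Egfr WT PSC libraries. Rev1, the scaffold that gathers these polymerases, averaged 6.55 ± 1.34 in Egfr KO PSC and 6.29 ± 0.995 CPM in Egfr WT PSC libraries. The 95% confidence interval of each of these 4 genes included 0. Over the 7 translesion genes the summed level was 124.4, 136.6, 157.1, 135.9 and 135.5 TPM in Egfr KO PSC libraries, against 128.5, 120.2, 119.5, 123.8 and 112.6 TPM in Egfr WT PSC libraries, with a median log2 fold change of 0.06. Rad18 and Mad2l2 made up most of that sum.

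The 14 genes of homologous recombination and end resection included 3 at an unadjusted edgeR p under 0.05 (21.4%, against 8.15% of all genes). Of these 3, 2 were higher and 1 was lower in Egfr KO PSC libraries. Mre11a encodes the nuclease that, with Rad50 and Nbn, binds broken ends. It was at 42.4, 50.2, 53.9, 55.5 and 47.8 CPM in Egfr KO PSC libraries, against 46.7, 41.6, 38.3, 42.2 and 43.2 CPM in Egfr WT PSC libraries (log2 fold change 0.24, SE 0.10, edgeR adjusted p = 0.593). Egfr KO PSC replicate 1 lay inside the Egfr WT PSC range and the other 4 above it. Of its partners, Rad50 averaged 44.5 ± 4.88 in Egfr KO PSC and 43.7 ± 4.24 CPM in Egfr WT PSC libraries and Nbn 7.5 ± 1.3 in Egfr KO PSC and 7.5 ± 1.2 CPM in Egfr WT PSC libraries, with log2 fold changes of 0.03 and 0.00. The difference between Mre11a and these partners was not tested.

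Xrcc3 and Rad51b belong to a family of related genes that act in the strand exchange step of homologous recombination. Xrcc3 was at 17.2, 20.1, 18.8, 19.5 and 18.1 CPM with Egfr KO PSCs, against 14.4, 14.2, 15.0, 18.7 and 15.8 CPM in Egfr WT PSC libraries (log2 fold change 0.26, SE 0.12, edgeR adjusted p = 0.601). Only Egfr WT PSC replicate 4 reached into the Egfr KO PSC range. Rad51b was at 9.84, 7.72, 6.80, 7.43 and 9.30 CPM with Egfr KO PSCs, against 13.1, 10.8, 9.89, 8.17 and 11.0 CPM in Egfr WT PSC libraries (log2 fold change -0.36, SE 0.17, edgeR adjusted p = 0.606). It was lower in Egfr KO PSC libraries apart from an overlap with Egfr WT PSC replicate 4.

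Rad51c was the gene of that family with the lowest level, with 34 to 138 counts in a library. It was at 0.702, 2.18, 3.12, 2.62 and 0.795 CPM with Egfr KO PSCs and at 3.17, 2.42, 1.53, 1.44 and 2.12 CPM in Egfr WT PSC libraries (log2 fold change -0.18, 95% confidence interval -1.10 to 0.73). Egfr KO PSC replicates 1 and 5 were lowest of all 10 libraries and replicate 3 was among the highest. The nonsense-mediated decay transcript ENSMUST00000153073.8 held 62.2% of its TPM. Rad51d averaged 15.0 ± 1.53 in Egfr KO PSC and 15.3 ± 1.37 CPM in Egfr WT PSC libraries and Xrcc2 5.94 ± 1.55 in Egfr KO PSC and 6.10 ± 0.662 CPM in Egfr WT PSC libraries, with intervals that included 0.

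Brca1 and its partner Bard1, which form a ubiquitin ligase that licenses resection, averaged 20.6 ± 6.39 in Egfr KO PSC and 17.3 ± 3.10 CPM in Egfr WT PSC libraries, and 10.1 ± 3.39 in Egfr KO PSC and 8.63 ± 1.41 CPM in Egfr WT PSC libraries. Palb2, which bridges Brca1 and Brca2, averaged 10.1 ± 1.9 in Egfr KO PSC and 8.20 ± 1.40 CPM in Egfr WT PSC libraries (log2 fold change 0.30). Brca2, a central mediator of homologous recombination, averaged 9.05 ± 4.10 in Egfr KO PSC and 7.63 ± 1.13 CPM in Egfr WT PSC libraries, the helicase gene Brip1 10.3 ± 3.96 in Egfr KO PSC and 8.82 ± 1.19 CPM in Egfr WT PSC libraries, and the motor protein gene Rad54l 17.2 ± 7.45 in Egfr KO PSC and 16.7 ± 1.6 CPM in Egfr WT PSC libraries. None of these 6 differences exceeded the spread between libraries at an unadjusted p of 0.05. The SD was larger with Egfr KO PSCs in each of them.

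The Fanconi anaemia pathway is built around a core ubiquitin ligase that modifies the Fancd2 and Fanci pair at cross-links. Fancl, the ligase subunit, had the lowest p of the 10 genes. It was at 5.79, 5.04, 7.73, 5.93 and 4.21 CPM with Egfr KO PSCs, against 4.06, 4.06, 5.15, 4.90 and 4.76 CPM in Egfr WT PSC libraries (log2 fold change 0.32, SE 0.19, edgeR adjusted p = 0.686). Fancf, an adaptor of the core complex, was among the lowest members by TPM, with 10 to 71 counts in a library. It was at 0.585, 0.521, 1.64, 0.595 and 0.444 CPM with Egfr KO PSCs and at 0.230, 0.623, 0.396, 0.474 and 0.693 CPM with Egfr WT PSCs. Its log2 fold change of 0.64 (95% confidence interval -0.28 to 1.56) came down to 0.16 without Egfr KO PSC replicate 3.

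The substrates varied more between libraries of 1 group than between the groups. Fancd2 was at 10.7, 21.8, 29.2, 19.0 and 9.68 CPM with Egfr KO PSCs, against 17.6, 14.4, 12.3, 15.5 and 13.6 CPM with Egfr WT PSCs. Its Egfr KO PSC libraries lay on both sides of the whole Egfr WT PSC range, with replicates 1 and 5 below it. Fanci averaged 13.5 ± 5.05 in Egfr KO PSC and 13.4 ± 2.63 CPM in Egfr WT PSC libraries. Fanca averaged 12.7 ± 5.65 in Egfr KO PSC and 10.6 ± 2.38 CPM in Egfr WT PSC libraries, Fancb 4.49 ± 1.57 in Egfr KO PSC and 4.65 ± 0.639 CPM in Egfr WT PSC libraries, and the translocase gene Fancm 4.70 ± 1.63 in Egfr KO PSC and 4.49 ± 0.627 CPM in Egfr WT PSC libraries. Fancc averaged 15.5 ± 1.31 in Egfr KO PSC and 16.7 ± 1.04 CPM in Egfr WT PSC libraries, Fance 3.29 ± 0.492 in Egfr KO PSC and 3.29 ± 1.02 CPM in Egfr WT PSC libraries, and Fancg 15.9 ± 3.24 in Egfr KO PSC and 15.6 ± 1.54 CPM in Egfr WT PSC libraries. The median log2 fold change over the 10 genes was 0.05, with 0 of the 10 at an unadjusted edgeR p under 0.05. It was 0.34 with the macrophage level as a covariate and -0.04 in the fit on log2(TPM + 1).

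Among the checkpoint kinases, Atm, which responds to broken ends, had the lowest p. It was at 22.6, 25.6, 27.2, 25.3 and 19.4 CPM with Egfr KO PSCs, against 34.3, 22.5, 31.8, 27.6 and 24.4 CPM in Egfr WT PSC libraries (log2 fold change -0.23, SE 0.14, edgeR adjusted p = 0.713). Atr, which responds to single-stranded DNA at forks, averaged 28.3 ± 6.06 in Egfr KO PSC and 26.5 ± 2.65 CPM in Egfr WT PSC libraries, and its partner Atrip 24.4 ± 3.0 in Egfr KO PSC and 25.2 ± 1.02 CPM in Egfr WT PSC libraries. The Atr target Chek1 was at 7.5, 13.1, 17.5, 13.8 and 6.64 CPM with Egfr KO PSCs, against 10.6, 8.29, 6.97, 9.07 and 11.0 CPM in Egfr WT PSC libraries (log2 fold change 0.35, SE 0.26). The Atm target Chek2 averaged 23.5 ± 7.49 in Egfr KO PSC and 25.3 ± 4.06 CPM in Egfr WT PSC libraries. Again Egfr KO PSC replicates 2, 3 and 4 lay above replicates 1 and 5 for both effector kinases.

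Of the end-joining genes, Xrcc5 and Xrcc6 encode Ku80 and Ku70, the ring that caps broken ends. Xrcc5 was at 77.1, 59.5, 60.4, 65.2 and 77.0 CPM with Egfr KO PSCs, against 93.9, 66.1, 62.0, 64.3 and 58.0 CPM in Egfr WT PSC libraries (log2 fold change -0.02, 95% confidence interval -0.33 to 0.29). Xrcc6 was at 45.8, 59.2, 47.7, 53.2 and 39.0 CPM with Egfr KO PSCs, against 66.3, 50.9, 55.4, 55.7 and 48.0 CPM in Egfr WT PSC libraries (log2 fold change -0.17, SE 0.13). Egfr WT PSC replicate 1 was the highest library for both. By mean TPM they had ranks 2 and 3 among the 48 members, at 38.3 ± 3.46 in Egfr KO PSC and 39.8 ± 9.05 TPM in Egfr WT PSC libraries for Xrcc5 and 36.0 ± 6.51 in Egfr KO PSC and 41.5 ± 6.23 TPM in Egfr WT PSC libraries for Xrcc6. The values of the pair overlapped, so their order was within the spread.

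Polq, the polymerase of microhomology-mediated end joining, was the lowest member by TPM, at 0.403, 0.741, 1.28, 0.701 and 0.449 TPM with Egfr KO PSCs and 0.747, 0.567, 0.585, 0.736 and 0.690 TPM with Egfr WT PSCs. Its CPM was 2.09, 4.17, 4.37, 2.86 and 2.48 with Egfr KO PSCs and 4.18, 3.11, 3.09, 3.41 and 3.83 with Egfr WT PSCs. The log2 fold change of Polq was -0.14 on counts and 0.10 with offsets from effective transcript lengths, so its sign depended on the scale. Lig4 averaged 9.52 ± 1.46 in Egfr KO PSC and 10.2 ± 1.83 CPM in Egfr WT PSC libraries and its partner Xrcc4 23.5 ± 1.45 in Egfr KO PSC and 23.0 ± 2.16 CPM in Egfr WT PSC libraries. Of the 5 genes, 4 had a log2 fold change below 0, and 0 of 5 reached an unadjusted edgeR p under 0.05.

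In the group of mismatch, base excision and single-strand break repair, Parp1, the sensor of strand breaks, had the lowest p. It was at 65.8, 76.2, 84.6, 68.2 and 52.7 CPM with Egfr KO PSCs, against 91.0, 70.0, 71.0, 76.9 and 66.8 CPM in Egfr WT PSC libraries (log2 fold change -0.11, SE 0.13, edgeR adjusted p = 0.855). Its scaffold Xrcc1 averaged 35.8 ± 7.78 in Egfr KO PSC and 34.3 ± 1.73 CPM in Egfr WT PSC libraries and the ligase Lig3, which works with Xrcc1, 48.1 ± 4.37 in Egfr KO PSC and 45.7 ± 4.42 CPM in Egfr WT PSC libraries. The mismatch genes Msh6, which recognises mispairs, and Pms2, which nicks the new strand, averaged 27.9 ± 5.83 in Egfr KO PSC and 27.1 ± 2.90 CPM in Egfr WT PSC libraries, and 27.6 ± 3.92 in Egfr KO PSC and 26.6 ± 2.66 CPM in Egfr WT PSC libraries. Ung, the uracil glycosylase, averaged 5.64 ± 2.82 in Egfr KO PSC and 6.14 ± 0.776 CPM in Egfr WT PSC libraries. Lig1, which joins Okazaki fragments in replication, was at 37.1, 62.8, 83.2, 58.6 and 34.2 CPM with Egfr KO PSCs, against 50.4, 49.6, 40.5, 46.8 and 67.0 CPM with Egfr WT PSCs. As with Fancd2, its Egfr KO PSC replicates 1 and 5 were lowest and replicate 3 was highest of all 10 libraries.

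The members differed from library to library more than from group to group. The SD of log2 CPM was larger with Egfr KO PSCs in 38 of the 48 members (79.2%), and in 61.4% of all genes tested. The median SD was 0.288 in Egfr KO PSC libraries and 0.186 in Egfr WT PSC libraries, while over all genes it was 0.333 in Egfr KO PSC and 0.284 in Egfr WT PSC libraries. Since many of the members are S phase genes, a proliferation level was computed in each library as the mean log2 CPM of 38 replication and mitosis genes that are not members, such as Mki67, Top2a and Mcm2. It was 4.82, 5.56, 5.97, 5.39 and 4.81 in Egfr KO PSC libraries and 5.42, 5.24, 4.97, 5.29 and 5.37 in Egfr WT PSC libraries. The group means did not differ beyond the spread (5.31 ± 0.498 with Egfr KO PSCs against 5.26 ± 0.176 with Egfr WT PSCs, SD, n = 5 each; exact two-sided permutation p = 0.825), but the Egfr KO PSC libraries covered the wider range, with replicate 3 highest and replicates 1 and 5 lowest.

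**Figure D4:**
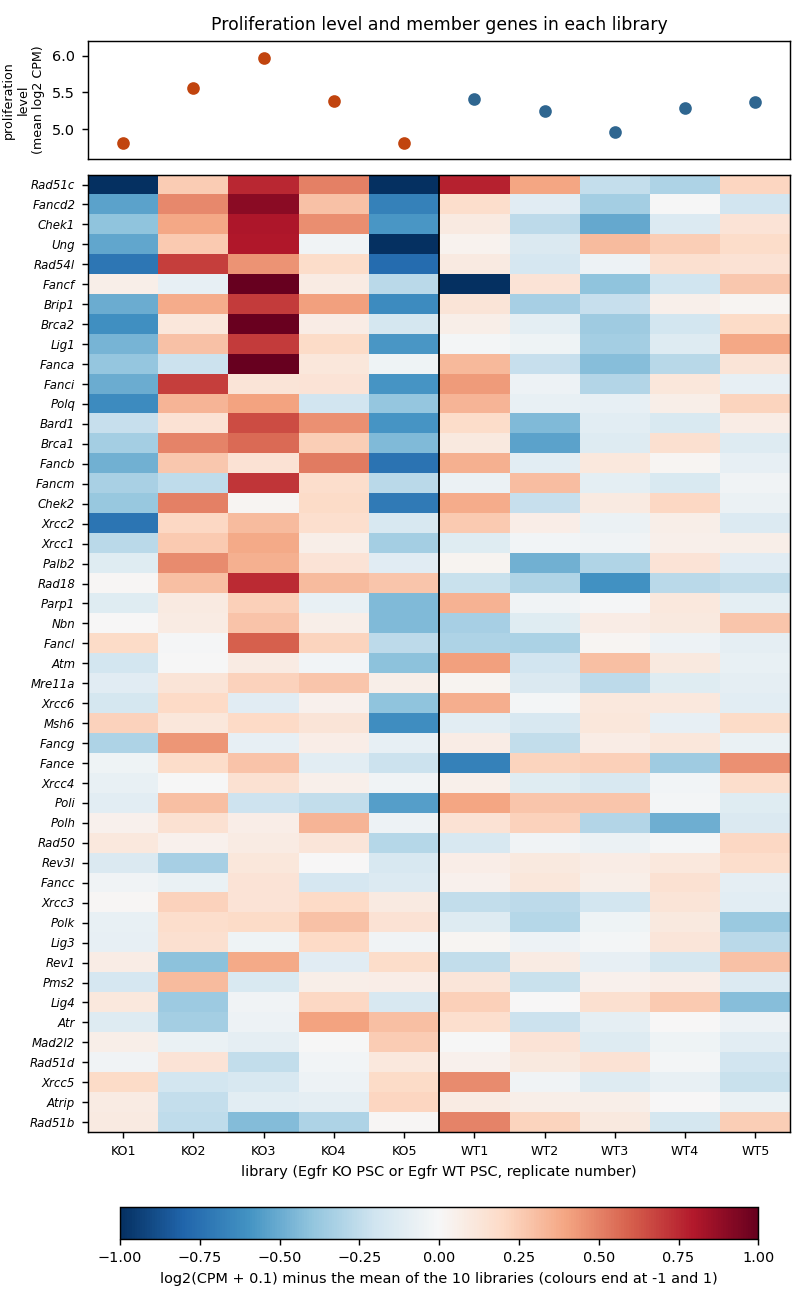
Upper panel: the proliferation level (mean log2 CPM of 38 genes outside the members) in each library. Lower panel: log2(CPM + 0.1) of every member minus its mean over the 10 libraries, with colours ending at -1 and 1, Egfr KO PSC left of Egfr WT PSC and genes ordered by their slope on the proliferation level. In the upper rows, Egfr KO PSC replicates 2, 3 and 4 are mostly above the mean and replicates 1 and 5 below it.

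The relation was then tested across all genes outside the proliferation list, with the proliferation level as a continuous term beside the group in edgeR. This test was chosen after the data were seen. A slope is the log2 change of a gene per unit of the proliferation level. Of the 48 members, 5 were called with a positive slope (edgeR adjusted p under 0.05), against 0.613% of 17457 genes, and 0 with a negative slope, against 0.281%. The 5 were named because they were called: Fancd2 (slope 1.31, SE 0.17, edgeR adjusted p = 0.0101), Lig1 (1.09, SE 0.15, edgeR adjusted p = 0.0123), Chek1 (1.21, SE 0.19, edgeR adjusted p = 0.0208), Brip1 (1.12, SE 0.21, edgeR adjusted p = 0.0365) and Brca2 (1.09, SE 0.21, edgeR adjusted p = 0.0440). At an unadjusted edgeR p under 0.05, 22 of 48 members had a positive slope, against 9.11% of all genes, and 0 a negative one, against 9.96%.

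The roles did not share this evenly. A positive slope at an unadjusted edgeR p under 0.05 was found for 6 of 10 Fanconi genes, 8 of 14 recombination genes, 4 of 7 excision and mismatch genes and 2 of 5 checkpoint kinases. It was found for 1 of 5 end-joining genes, Polq (slope 0.88, SE 0.25), and 1 of 7 translesion genes, Rad18 (slope 0.50, SE 0.14). The difference between roles was not tested. The median slope was 0.72 in the Fanconi genes, 0.60 in the recombination genes and 0.15 in the translesion genes, beside -0.0028 for all genes. Rad51c had the largest slope of any member, 1.89 (SE 0.40, edgeR adjusted p = 0.0542).

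The calls depended on single libraries, most of all on those at the ends of the range. Without Egfr KO PSC replicate 1, replicate 3 or replicate 5 the number of members called was 0, and all genes called with a positive slope were 3, 3 and 9. In these fits 18, 18 and 17 of the 48 members had a positive slope at an unadjusted edgeR p under 0.05, against 22 with all libraries. The share of all genes at that level in these fits was not counted. Without Egfr WT PSC replicates 2, 3 or 4 the members called numbered 3, 3 and 2, and without Egfr WT PSC replicate 1 they numbered 8. Within the Egfr KO PSC libraries alone, and within the Egfr WT PSC libraries alone, 0 genes and 0 members were called with edgeR. At an unadjusted edgeR p under 0.05, 18 of 48 members had a positive slope within Egfr KO PSC libraries, against 8% of all genes, and 0 of 48 within Egfr WT PSC libraries, against 0.917%. The slope was above 0 in 41 of 48 members within Egfr KO PSC libraries, against 8643 of all 17457 genes. Within Egfr WT PSC libraries it was above 0 in 33 of 48 members, against 9217 of 17457 genes. The slope was above 0 in both groups for 29 of 48 members (60.4%), against 30.1% of all genes. The difference between the groups in slope was not tested. Ung had slopes of 1.43 within Egfr KO PSC and -0.45 within Egfr WT PSC libraries, and Xrcc1 0.63 within Egfr KO PSC and 0.01 within Egfr WT PSC libraries, both chosen after their values were seen. For Fancd2 the slope was between 1.23 and 1.37 when any 1 library was left out, with an adjusted edgeR p between 0.0141 and 0.139. The slope of Brca2 moved most among the 5 called genes, between 0.79 and 1.35, with an adjusted edgeR p of up to 0.451. That of Rad18 was between 0.37 and 0.68. For Fancd2 the slope was 1.36 within Egfr KO PSC libraries and 0.88 within Egfr WT PSC libraries. For Lig1 it was 1.08 within Egfr KO PSC and 1.15 within Egfr WT PSC libraries, for Chek1 1.17 within Egfr KO PSC and 1.47 within Egfr WT PSC libraries. The slope of Brip1 was 1.17 within Egfr KO PSC and 0.78 within Egfr WT PSC libraries, and that of Brca2 was 1.10 within Egfr KO PSC and 1.08 within Egfr WT PSC libraries. All 5 called genes had a positive slope in each group. Other measures also set these libraries apart. The epithelial level was 9.87 in Egfr KO PSC replicate 3, the lowest of all, and 10.4 and 10.5 in replicates 1 and 5, the highest of all. The endothelial level was highest in replicate 3, at 1.82, and the part of these levels in the slopes was not tested.

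**Figure D5:**
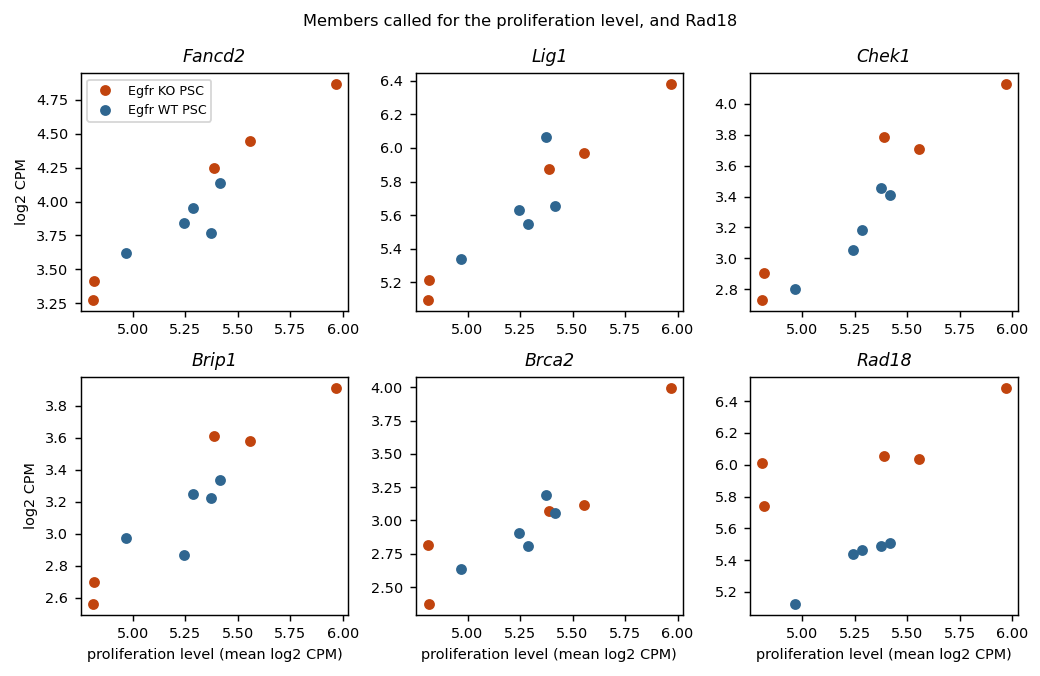
log2 CPM (vertical axes) of the 5 members called for the proliferation level, and of Rad18, against the proliferation level (horizontal axes, mean log2 CPM of 38 genes), 1 point per library. For Fancd2, Lig1, Chek1, Brip1 and Brca2 the libraries of both groups lie along 1 trend, while the Rad18 points of Egfr KO PSC libraries lie above those of Egfr WT PSC libraries.

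With the proliferation level in the fit, the group difference of Rad18 was 0.64 on the log2 scale with an edgeR adjusted p of 0.0592. It was again the member of lowest p for the group. The median log2 fold change of all 48 members between the groups was 0.01 in that fit.

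Promoter windows are shown for Brca2, Brip1, Chek1 and Lig1 because these called genes moved together with the proliferation level. Of the 48 members, 41 matched a 300-base window in the RefSeq table (GRCm38.p6). Capitals mark E2F-type letters in Brca2 (chr5:150522371-150522670, plus strand), Chek1 (chr9:36726609-36726908, minus strand) and Lig1 (chr7:13278576-13278875, plus strand, the start of 3 in the table that holds the letters). In Brip1 (chr11:86201144-86201443, minus strand) capitals mark ATTGG, the reverse complement of CCAAT.
Brca2: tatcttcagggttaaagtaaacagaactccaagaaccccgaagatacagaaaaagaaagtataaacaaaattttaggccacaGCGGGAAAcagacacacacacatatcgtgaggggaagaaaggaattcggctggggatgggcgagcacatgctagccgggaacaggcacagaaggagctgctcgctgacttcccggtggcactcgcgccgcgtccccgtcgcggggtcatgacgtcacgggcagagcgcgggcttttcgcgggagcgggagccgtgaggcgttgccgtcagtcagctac
Brip1: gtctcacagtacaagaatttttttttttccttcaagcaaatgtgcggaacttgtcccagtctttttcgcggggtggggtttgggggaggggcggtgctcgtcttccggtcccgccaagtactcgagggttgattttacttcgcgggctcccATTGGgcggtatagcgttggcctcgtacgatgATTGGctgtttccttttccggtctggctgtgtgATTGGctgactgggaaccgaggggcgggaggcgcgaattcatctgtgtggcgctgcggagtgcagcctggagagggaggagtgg
Chek1: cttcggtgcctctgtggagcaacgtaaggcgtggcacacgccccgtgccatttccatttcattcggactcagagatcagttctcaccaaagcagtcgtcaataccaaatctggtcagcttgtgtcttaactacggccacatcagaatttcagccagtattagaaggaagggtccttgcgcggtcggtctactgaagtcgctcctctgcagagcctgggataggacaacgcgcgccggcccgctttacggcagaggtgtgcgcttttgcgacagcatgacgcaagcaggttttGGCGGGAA
Lig1: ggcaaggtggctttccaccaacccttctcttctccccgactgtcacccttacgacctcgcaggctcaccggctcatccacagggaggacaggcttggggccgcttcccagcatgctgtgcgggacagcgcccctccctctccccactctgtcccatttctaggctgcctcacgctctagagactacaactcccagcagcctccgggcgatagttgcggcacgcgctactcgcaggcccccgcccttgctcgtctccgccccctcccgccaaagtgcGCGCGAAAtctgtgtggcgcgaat

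Counted from the start, the capitals begin at position -168 in Brca2, 42 in Chek1 and 26 in Lig1. Brip1 holds no string of the E2F type and has ATTGG 3 times before the start. A gene was counted when any of its windows held the letters, so a gene with more starts in the table had more chances. E2F-type letters were found for 12 of the 41 members with a window (29.3%). They were found for 7.68% of tested genes with a window and for 4.46% of all 27025 genes with a window. Among members with a window and a positive slope at an unadjusted p under 0.05, 9 of 20 held them, and among the other members 3 of 21. CCAAT was found for 22 of the 41 members (53.7%), against 41.1% of all genes with a window, and for 10 of the 20 and 12 of the 21. The string GGCGGGAA was added to the search after windows had been seen, so the member share with it was partly set by that choice. With the other 4 strings alone, 8 of the 41 members held a match (19.5%), against 4.4% of tested genes and 2.6% of all genes with a window. Of these 8, 5 were among the 20 members with a positive slope and 3 among the 21 others. The printed Chek1 window then holds none. A match describes letters and shows no bound site.

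A wider list of 132 DNA repair genes outside the 48 also held no edgeR call between the groups. With edgeR 0 of the 132 passed, and 12 (9.09%) were at an unadjusted edgeR p under 0.05, 6 higher and 6 lower, against 8.15% of all genes. The 6 of lowest p were Aptx, Shld1, Ube2b, Smarcal1, Rad9a and Rbbp8. Aptx, which removes stalled ligation products, was at 18.2, 17.5, 21.01, 20.8 and 22.1 CPM with Egfr KO PSCs, against 13.0, 14.4, 15.6, 15.5 and 16.02 CPM with Egfr WT PSCs, without overlap (log2 fold change 0.42, SE 0.12, edgeR adjusted p = 0.440). It was the 1 gene of the 132 that DESeq2 called, against 0.749% of all genes, so the list held about the share of all genes. Shld1, a shieldin subunit and so a partner of Mad2l2, averaged 2.68 ± 0.246 in Egfr KO PSC and 3.72 ± 0.512 CPM in Egfr WT PSC libraries, lower without overlap (log2 fold change -0.47, SE 0.17, edgeR adjusted p = 0.509). Ube2b, which encodes a Rad6 enzyme that acts with Rad18, was at 210, 204, 196, 236 and 199.9 CPM with Egfr KO PSCs, against 183, 164, 178, 186 and 189.7 CPM in Egfr WT PSC libraries (log2 fold change 0.22, SE 0.09, edgeR adjusted p = 0.555). These Ube2b libraries did not overlap either. In all, the groups did not overlap for 4 of the 132 genes (3.03%), against 1.52% of all genes. The fourth was the nuclease gene Ercc4, named after its values were seen, with 13.5 ± 0.890 CPM in Egfr KO PSC and 11.4 ± 0.641 CPM in Egfr WT PSC libraries.

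The other Rad6 gene, Ube2a, averaged 46.4 ± 2.90 in Egfr KO PSC and 43.1 ± 3.22 CPM in Egfr WT PSC libraries, and Pcna, the substrate of Rad18, 166 ± 24.4 in Egfr KO PSC and 141 ± 13.5 CPM in Egfr WT PSC libraries (log2 fold changes 0.11 and 0.24, edgeR adjusted p 0.792 and 0.644). Both were chosen after their values were seen, as partners of Rad18. Ube2a, Ube2b and Pcna come from a part of the wider list with 21 genes of ubiquitin and damage tolerance. Of these 21, 13 had a log2 fold change above 0 (61.9%, against 50.1% of all genes) and 8 below 0. A joint change of Rad18 and its partners was not tested. Smarcal1, a fork remodeller, averaged 17.9 ± 3.50 in Egfr KO PSC and 22.8 ± 2.79 CPM in Egfr WT PSC libraries. Rad9a, of the checkpoint clamp, averaged 46.5 ± 5.01 in Egfr KO PSC and 39.3 ± 3.6 CPM in Egfr WT PSC libraries, and Rbbp8, the resection factor CtIP, 33.5 ± 3.0 in Egfr KO PSC and 40.04 ± 4.8 CPM in Egfr WT PSC libraries. Their groups overlapped. With the proliferation level as a term, 8 of the 132 were called with a positive slope, against 0.613% of all genes. A positive slope at an unadjusted edgeR p under 0.05 was found for 41 of the 132 (31.1%), against 9.11% of all genes.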

How the data were processed

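RNA of flow-sorted tumour epithelial cells was sequenced in 10 libraries, 5 with Egfr KO PSCs and 5 with Egfr WT PSCs, grouped by the PSC line in the labels. The deposited expected counts and TPM per transcript were made with Salmon 1.9.0 on GRCm39, per the submitters' processing notes (annotation release: not given in the sources used here). Estimated counts, as deposited, were not normalised. The authors' TPM values were scaled by effective transcript length, per the file headers, and were summed per gene for levels. RNA was amplified by PCR in cycles that depended on input, per the labels' protocols, and without molecular identifiers duplicates cannot be told apart.

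Of 147828 transcripts, 137063 (92.7%) were given a gene through GENCODE release 21 by identifier, and held 98.1% to 98.7% of the counts. Counts were summed per gene, rounded to whole numbers and tested with edgeR 4.0.16 (quasi-likelihood F test, R 4.3.3, expression filter with a minimum count of 10, TMM scaling), with Benjamini-Hochberg adjustment over 17495 genes and a threshold of 0.05. SE and 95% confidence intervals were derived from F. CPM is the TMM-scaled count relative to the library total. Transcripts were tested in the same way (46220 tested). Marker levels are the mean log2 CPM with a prior count of 2, compared by exact two-sided permutation over 252 assignments. The proliferation test used 17457 genes. Depth was 39534055 to 53816086 counts in genes, and the closest pair of libraries differed by a chi-square of 38.9 per degree of freedom, so no pair agreed within sampling noise. Fits were tested on simulated data.

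The members and lists were chosen with earlier results of these data known. Values per library are given for members at an unadjusted p under 0.05, the member of lowest p in each role, and Rad18. They are also given for the 3 highest and 3 lowest members by TPM, 14 members in all. Fancd2, Chek1 and Lig1 were added after their values were seen. Transcripts holding at least 20% of the TPM of a member are described for some members. Of the related genes the 6 of lowest p are described, Aptx and Ube2b by library and the others by mean and SD. Alternatives were DESeq2 1.42.0, limma 3.58.1 (voom with sample weights, or log2(TPM + 1) with a mean TPM of at least 1), other size factors, effective-length offsets, no filter, covariates (fibroblast and stellate, macrophage or proliferation level, or the number 8, 9 or 10 in the well name), and each library left out. A gene of the wider repair list is not reported here.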

Additional observations from a re-analysis of the deposited data

Results flagged for a closer look

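For each member the 5 libraries of a group were examined for 1 library far from the others, by the ratio of its gap to the range of the group, with a limit of 0.71. Of 96 groups examined 7 passed, and chance gives about 1 in 20, or 4.8. Egfr KO PSC replicate 3 was highest for Fanca, at 22.5 CPM against 8.52 to 12.0 CPM in the other 4 libraries. It was also highest for Fancf, at 1.64 CPM against 0.444 to 0.595 CPM. Egfr KO PSC replicate 5 was lowest for Rad50, at 35.9 CPM against 45.4 to 47.7 CPM, and for Msh6, at 17.6 CPM against 29.3 to 31.8 CPM. Egfr WT PSC replicate 3 was lowest for Rad18, at 34.9 CPM against 43.3 to 45.5 CPM. Egfr WT PSC replicate 2 was highest for Fancm, at 5.59 CPM against 4.03 to 4.36 CPM. Egfr WT PSC replicate 1 was highest for Xrcc5, at 93.9 CPM against 58.0 to 66.1 CPM.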

How the results depend on the processing

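The fit was repeated under 20 other settings. Over all genes, edgeR called 0, DESeq2 131, limma voom 2, the fit on log2(TPM + 1) 2, the fit without a filter 1, and the fit with the proliferation level as a covariate 2, and leaving out 1 library gave 0 to 4. The number of members called was 1 with DESeq2 (Rad18, log2 fold change 0.68, adjusted p = 0.00599) and 0 elsewhere. Members at an unadjusted p under 0.05 numbered 5, but 2 with effective-length offsets, on log2(TPM + 1), without a filter and with the well number, 3 with the macrophage level, and 1 to 6 when 1 library was left out. The Fanconi median was 0.34 with the macrophage level. DESeq2 called 3 member transcripts, all of the 1 gene Rad18, against 0.462% of all transcripts it gave an adjusted p. The sign turned for Polq with effective-length offsets (0.10), for Xrcc5 with limma voom (0.0028), and when 1 library was left out for Xrcc5 (-0.078 to 0.12) and Rad51c (-0.43 to 0.036). The values for Xrcc5 were 0.023, 0.024 and 0.12 without Egfr KO PSC replicates 2 or 3 or Egfr WT PSC replicate 1, and for Rad51c 0.036, 0.018 and 0.0017 without Egfr KO PSC replicates 1 or 5 or Egfr WT PSC replicate 1. The cause was not tested. The members called for the proliferation level numbered 0 in either group alone and 0 to 8 when 1 library was left out (8 without Egfr WT PSC replicate 1 and 0 without Egfr KO PSC replicates 1, 3 or 5). The medians stood near 0 and also turned. The median log2 fold change of the members was -0.02 on log2(TPM + 1) and -0.01 without Egfr KO PSC replicate 3. The Fanconi median was -0.04, -0.000024 and -0.02 on log2(TPM + 1), with the proliferation level and without Egfr KO PSC replicate 3. The checkpoint median was 0.0050 and 0.03 without Egfr KO PSC replicates 2 or 5, and the mismatch and excision median was -0.03 without Egfr KO PSC replicate 3. In all, 132 of 140 medians and 270 of 278 single-member values kept their sign. Without the string GGCGGGAA, 8 members in place of 12 held E2F-type letters in a window. No paired analysis was possible because the labels give no replicate numbers that link the groups, and the numbers used here only follow accession order.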
